A study of Homo sapiens with 6 samples.

Results

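Drugs, bile acids and other organic ions enter and leave hepatocytes through membrane carriers, and 8 genes of such carriers are described here in lenvatinib-resistant liver cancer cells. They were taken by symbol from the deposited table, SLCO1B1, SLCO1B3, SLCO2B1, SLCO4C1, SLC22A3, SLC22A7, SLC22A9 and SLC47A1, and each symbol named 1 row, so that they make up 8 of 19974 annotated genes. The study asked how hepatocellular carcinoma cells become resistant to lenvatinib, an inhibitor of receptor tyrosine kinases. Poly(A) RNA of 2 human hepatocellular carcinoma lines was sequenced, with 3 samples of the parental line Huh7 P and 3 samples of Huh7 LR, which was grown from it over 10 months in lenvatinib that was raised from 1 μM to 20 μM. The resistant line was then kept in lenvatinib at the highest dose, but the sources used here do not state whether the drug was present when RNA was taken. As 1 resistant line was set against its parent, resistance, drug exposure and long separate culture cannot be told apart, and p-values measure the spread between samples of each line, which may be technical. The counts on genes and loci summed to between 62738937 and 71427573 per library (median 67122854), and a count of 0 in a library allowed up to 3 counts, or 0.042 to 0.0478 CPM (counts scaled to library size), for counting error alone.

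Organic anion transporting polypeptides, encoded by SLCO genes, carry bile acids, conjugated steroids, thyroid hormones and many drugs, statins among them, across the cell membrane without sodium. SLC22 genes encode carriers of organic anions and organic cations. SLC47A1 encodes MATE1, which moves cations out of the cell in exchange for protons, so that "uptake" does not describe its direction of transport. SLCO4C1 is best known from kidney tubules. The level of hepatocyte genes was high in both lines. The mean of albumin (ALB) was 12951 ± 1185 CPM (SD, n = 3) in parental and 21566 ± 1204 CPM (SD, n = 3) in resistant cells, and all 10 hepatocyte markers had enough counts to test.

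Members of each of the 3 gene families were higher in Huh7 LR, 1 member was lower and 1 did not pass the test. SLCO1B1, SLC22A7 and SLC22A9 were called higher in edgeR's quasi-likelihood test, where a call needed an adjusted p under 0.001 with more than a 2-fold change, so that 3 of 8 members were called higher, beside 4.43% of the 17531 genes and loci tested. As for lower calls, 0 of 8 members were called by edgeR, DESeq2 or limma, beside 1.78% of genes and loci by edgeR, and SLC22A3 alone was lower at an unadjusted p under 0.05. At an adjusted p under 0.05 with no fold threshold, 6 members were higher (23.3% of genes and loci were) and SLC22A3 was lower (22.4% of genes and loci were), and SLCO4C1 did not pass. In 6 members all Huh7 LR libraries lay above all Huh7 P libraries, beside 28.2% of genes and loci, and in SLC22A3 all lay below, beside 27.7%. The median log2 fold change was 0.91 over the 8 members and 0.00 over all genes and loci tested. The members were chosen with earlier results of these data known, so these counts and the median describe them and test nothing. All 8 members passed the filter on low counts, and SLCO1B1 passed through its Huh7 LR libraries alone. Its count and its part in the median therefore add no weight to those of the other members. In a bulk sample, fewer cells with an RNA and less of that RNA per cell cannot be told apart.

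**Figure D1:**
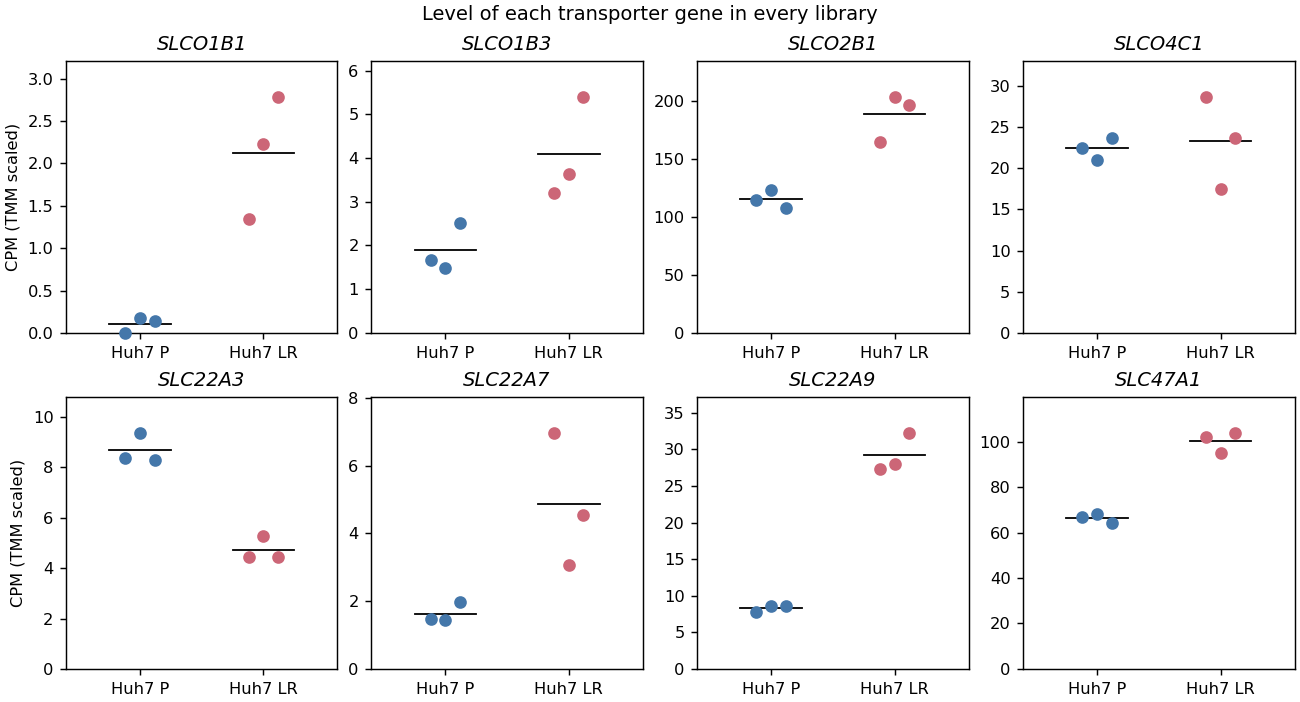
Level of each of the 8 transporter genes, in CPM scaled by TMM, in the 3 Huh7 P libraries (blue) and the 3 Huh7 LR libraries (red). Each point is a library and each line is the mean of 3 libraries. The lines of cells overlap in SLCO4C1, and SLC22A3 is the gene with all Huh7 LR libraries lower.

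SLCO1B1 and SLCO1B3 encode OATP1B1 and OATP1B3, the uptake carriers of the blood-facing membrane of hepatocytes that take up bilirubin conjugates and statins. Both lie on the plus strand of chromosome 12 in GENCODE release 29 (GRCh38), SLCO1B3 (ENSG00000111700) from 20810702 to 20916911 and SLCO1B1 (ENSG00000134538) from 21131202 to 21239246. The sequence just upstream of SLCO1B3 is shown as a description, and whether it bears on the difference between the lines was not tested. RefSeq windows (GRCh38.p14) of 300 bases, with 250 before and 50 after the start site, were found for 5 of the 8 members. In the line that follows, capitals mark TGACCT, the reverse complement of AGGTCA, a motif of many nuclear receptors. It gives 240 bases before SLCO1B3 (chr12:20810455-20810694, plus strand).
SLCO1B3: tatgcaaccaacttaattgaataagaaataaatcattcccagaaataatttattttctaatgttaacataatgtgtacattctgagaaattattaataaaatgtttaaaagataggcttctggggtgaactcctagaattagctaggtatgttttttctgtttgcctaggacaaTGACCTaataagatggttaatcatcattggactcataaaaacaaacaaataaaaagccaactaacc

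In a global alignment of the SLCO1B1 and SLCO1B3 windows of 300 bases, 221 bases were identical, which is 85.3% of the aligned bases, with 82 gap positions. Other pairs of windows were not aligned for comparison. Both windows are poor in G and C, with 28.8% in the 240 bases before SLCO1B3 and 29.2% in those before SLCO1B1, where the median of all windows of 300 bases was 58.7%. Searched on both strands, AGGTCA was found in 4790 of 34796 distinct promoter windows (13.8%), those of SLC22A7 and SLCO1B3 included, and began at -76 from the start site of SLCO1B3. The window of SLCO1B1 did not hold it, so the marked letters are not part of what these windows share. CAAAGTCCA, a motif of HNF4 factors, was found in 0.385% of windows, and in 1 of the windows of SLCO2B1. TATAAA was found in 11.6% of windows and in that of SLCO1B1. These matches of letters describe the sequence, and binding was not measured.

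The Huh7 P libraries held 0, 11 and 9 counts of SLCO1B1, and the Huh7 LR libraries held 88, 156 and 190. On the scale of CPM these were 0, 0.178 and 0.138 against 1.35, 2.23 and 2.79. The gene was close to the limit of detection in the parental line and was counted in each resistant library. Its log2 fold change was 4.35 (standard error, SE, 0.59, 95% confidence interval 3.05 to 5.66, edgeR adjusted p = 0.000152). This call depended on single libraries: without Huh7 LR replicate 3 the adjusted p was 0.00118 and without Huh7 P replicate 3 it was 0.00146, both above 0.001, with log2 fold changes of 4.10 and 4.62. The fitted change ranged from 3.73 without Huh7 P replicate 1, the library with no count, to 4.96 without Huh7 P replicate 2. On log2(FPKM + 1) in limma-trend it was 0.84 (adjusted p = 0.000268), on a scale that understates the change of genes this low. Per length, SLCO1B1 had a mean of 0.0411 ± 0.0365 FPKM (SD, n = 3) in the parental and 0.885 ± 0.301 FPKM (SD, n = 3) in the resistant line.

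SLCO1B3 had 1.67, 1.49 and 2.52 CPM in Huh7 P and 3.21, 3.64 and 5.41 CPM in Huh7 LR. All resistant libraries were above all parental ones, and replicate 3 was the highest in each line. The log2 fold change was 1.11 (SE 0.25, edgeR adjusted p = 0.00371), which did not reach the call. DESeq2's Wald test called it (adjusted p = 0.000238), as did edgeR's test with the replicate number as a block (adjusted p = 0.000248). Without Huh7 LR replicate 3 the log2 fold change of SLCO1B3 was 0.85 (edgeR adjusted p = 0.021). Tumours also use a shorter SLCO1B3 transcript that starts inside the gene, and counts per gene do not separate it from that of hepatocytes. SLCO1B1 stood at 0, 0.12 and 0.0611 times the FPKM of SLCO1B3 in the Huh7 P libraries and at 0.438, 0.602 and 0.531 times in the Huh7 LR libraries. These genes are close paralogs, between which reads could be split by the authors' counting. A read-through gene, AC011604.2, shares 1930 exon bases (54.5%) with SLCO1B3 on the same strand and had 5 counts in Huh7 P replicate 3 and 0 in the other libraries. AC022335.1 shares 300 exon bases (13.5%) with SLCO1B1 and its counts were 0 in all parental and 5, 3 and 1 in resistant libraries. With these genes summed to them, the log2 fold changes were 1.09 for SLCO1B3 and 4.38 for SLCO1B1. SLCO1B7, which lies between them, had no count in any library.

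SLCO2B1 (ENSG00000137491, chromosome 11, 75100563 to 75206549, plus strand) encodes OATP2B1, a carrier of steroid sulfates and drugs found in liver, gut and many other tissues. It had 115, 123 and 108 CPM in Huh7 P and 165, 204 and 197 CPM in Huh7 LR. It was the most abundant member in every library, and the lines did not overlap. The mean was 116 ± 7.59 CPM (SD, n = 3) in the parental line and 188 ± 20.8 CPM (SD, n = 3) in the resistant line, a 1.63-fold rise, and the log2 fold change of 0.70 (SE 0.09, edgeR adjusted p = 0.000103) stayed under 2-fold. With 1 library left out at a time it lay between 0.65 and 0.79. The genes with the most similar profile over the 6 libraries, by the root mean square difference of centred log2(CPM + 0.5) among 14052 annotated genes, were PYGL (0.040), ZDHHC14 (0.048) and KLHL5 (0.049), with log2 fold changes of 0.68, 0.72 and 0.72.

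SLCO4C1 (ENSG00000173930, chromosome 5, 102233986 to 102296549, minus strand), whose product carries digoxin and thyroid hormone, had 22.5, 21 and 23.7 CPM in Huh7 P and 28.7, 17.5 and 23.7 CPM in Huh7 LR. The resistant libraries lay on both sides of the parental ones. Its log2 fold change was 0.06 (SE 0.15, edgeR adjusted p = 0.788), with a 95% confidence interval of -0.27 to 0.38, which leaves room for differences of that size in either direction.

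SLC22A7 (ENSG00000137204, chromosome 6, 43295694 to 43305538, plus strand) encodes OAT2, which takes up organic anions and nucleobase-like compounds at the blood-facing membrane of hepatocytes. It had 1.46, 1.43 and 1.96 CPM in Huh7 P and 6.97, 3.08 and 4.54 CPM in Huh7 LR. The resistant libraries were spread widely and all lay above the parental ones. The log2 fold change was 1.59 (SE 0.27, 95% confidence interval 0.99 to 2.19, edgeR adjusted p = 0.000719). The call depended on single libraries. Without Huh7 P replicate 1, 2 or 3 the adjusted p was 0.00563, 0.005 or 0.00267, and without Huh7 LR replicate 3 it was 0.0027, with log2 fold changes between 1.51 and 1.75. Without Huh7 LR replicate 1, the highest library, the log2 fold change was 1.24 and the call stood. On log2(FPKM + 0.1) in limma-trend the adjusted p was 0.00124. The FPKM values spaced the libraries differently, at 3.83, 1.61 and 1.79 in Huh7 LR, and the length that the authors' count and FPKM imply for the gene varied from 1873 to 2580 bases between libraries, so its level per length is less certain. CRIP3 overlaps 148 of its exon bases (4.2%) on the opposite strand, and had 2 counts over the parental and 1 over the resistant libraries.

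SLC22A9 (ENSG00000149742, chromosome 11, 63369789 to 63410294, plus strand) encodes OAT7, a carrier of the hepatocyte's blood-facing membrane that exchanges sulfated steroids for short-chain fatty acids. It had 7.82, 8.59 and 8.6 CPM in Huh7 P and 27.3, 28 and 32.3 CPM in Huh7 LR. Replicates of each line were close and the lines were far apart. The mean was 8.33 ± 0.447 CPM (SD, n = 3) in the parental line and 29.2 ± 2.71 CPM (SD, n = 3) in the resistant line, a 3.51-fold rise, and the log2 fold change was 1.81 (SE 0.10, edgeR adjusted p = 3.58e-07). It was the member with the smallest adjusted p, and it was called higher under all 15 alternatives run for it. The most similar profiles were those of ROBO2, PTPRM and AHSG, with root mean square differences of 0.066, 0.074 and 0.079 and log2 fold changes of 1.96, 1.74 and 1.73.

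SLC22A3 (ENSG00000146477, chromosome 6, 160348268 to 160452581, plus strand) encodes OCT3, a carrier of organic cations such as monoamines and metformin. It had 8.37, 9.37 and 8.29 CPM in Huh7 P and 4.45, 5.27 and 4.44 CPM in Huh7 LR. Each resistant library was below each parental one. The log2 fold change was -0.88 (SE 0.13, edgeR adjusted p = 0.000215), with a level 1.84-fold higher in Huh7 P, under the 2-fold threshold, and with 1 library left out at a time it lay between -0.96 and -0.82. The FPKM of SLC22A9 was 1.4, 1.33 and 1.55 times that of SLC22A3 in the Huh7 P libraries and 9.19, 7.7 and 10.5 times in the Huh7 LR libraries.

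SLC47A1 (ENSG00000142494, chromosome 17, 19495385 to 19579034, plus strand), the gene of the exporter MATE1, had 66.9, 68.2 and 64.2 CPM in Huh7 P and 102, 95.2 and 104 CPM in Huh7 LR. All resistant libraries lay above all parental ones, with little spread within either line. The log2 fold change was 0.60 (SE 0.07, edgeR adjusted p = 4.34e-05), a 1.51-fold rise. An antisense gene, AC025627.1, overlaps 203 of its exon bases (3.55%), and as strand-specific counting is not stated, reads of the pair cannot be told apart.

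Levels were compared between genes by FPKM, which the authors scaled for length and depth. In Huh7 P the order was SLCO2B1 with a mean of 25.4 ± 1.93 FPKM (SD, n = 3), SLC47A1 with 19.2 ± 0.627, SLCO4C1 with 3.86 ± 0.224, SLC22A9 with 3.37 ± 0.128 and SLC22A3 with 2.38 ± 0.165, followed by SLCO1B3 with 0.688 ± 0.167, SLC22A7 with 0.678 ± 0.0622 and SLCO1B1. The ranges of SLCO1B3 and SLC22A7 overlapped, and all other neighbours in this order were apart. In Huh7 LR, SLCO2B1 with 41.9 ± 4.92 FPKM (SD, n = 3) and SLC47A1 with 30 ± 1.61 again came first, and SLC22A9 with 11.9 ± 0.942 stood above SLCO4C1 with 4.09 ± 1.01. SLC22A3 moved from rank 5 to rank 7, with 1.32 ± 0.123 FPKM (SD, n = 3), below SLC22A7 with 2.41 ± 1.23 and SLCO1B3 with 1.68 ± 0.469. The ranges of SLCO4C1, SLC22A7, SLCO1B3 and SLC22A3 overlapped from each to the next. SLCO1B1 was the least abundant member in both lines. Among all annotated genes by mean FPKM, SLCO2B1 ranked 2661 in Huh7 P and 1526 in Huh7 LR, and SLCO1B1 ranked 14041 and 11414. The 8 genes summed to 55.8, 57.7 and 53.4 FPKM in Huh7 P and 90.1, 92.5 and 99.9 FPKM in Huh7 LR. SLCO2B1 and SLC47A1 together made up 80.8%, 81.2% and 78.5% of these sums in the parental libraries against 73.9%, 78.6% and 76.5% in the resistant ones, while the share of SLC22A9 was 5.8%, 5.89% and 6.53% against 12.8%, 12.1% and 13%.

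**Figure D2:**
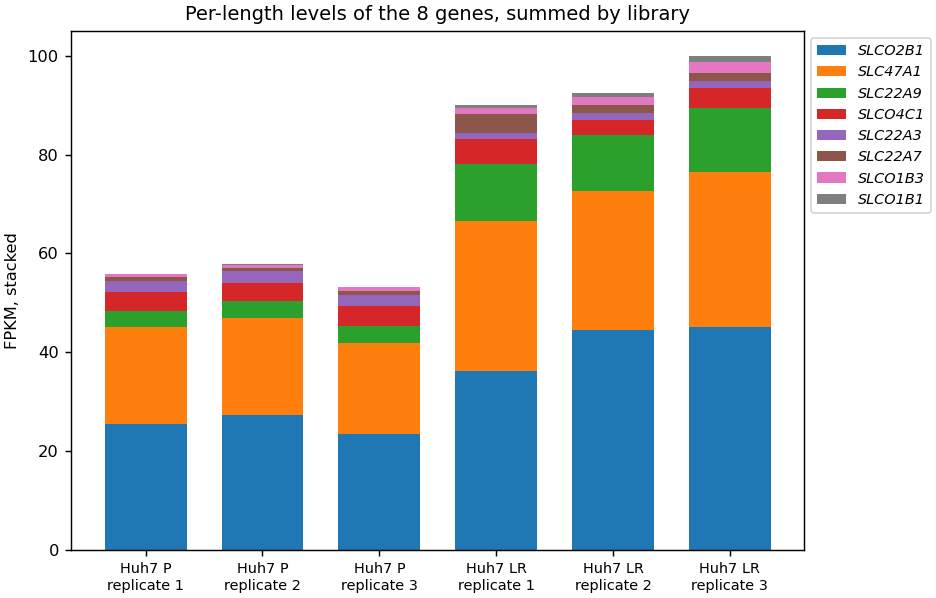
FPKM of the 8 transporter genes, stacked for each library, from the most abundant gene at the bottom to the least abundant at the top. The sums lie between 53.4 and 57.7 FPKM in the Huh7 P libraries and between 90.1 and 99.9 FPKM in the Huh7 LR libraries, and SLCO2B1 and SLC47A1 fill most of each bar.

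The other genes of these families and other carriers of hepatocytes were read from 3 lists. These were written from general knowledge but with earlier results of these data known, so their counts are a description only. Of 49 related genes found in the table, 34 had enough counts to test, and 7 were called higher and 0 lower (4.43% and 1.78% of all genes and loci tested were). At an adjusted p below 0.05 in edgeR, there were 16 higher and 5 lower genes (23.3% and 22.4% of all genes and loci were) and 13 that did not pass, and 9 of the 49 had no count in any library. SLC22A10, SLC22A15 and SLC10A1 passed the filter on low counts through their Huh7 LR libraries alone and SLCO6A1 through its Huh7 P libraries alone, so their directions add no weight to these counts. Their median log2 fold change was 0.50. DESeq2 and limma called 0 of them lower as well, and 6 were lower at an unadjusted p under 0.05.

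Of 8 other SLCO genes, 4 were tested, with a median log2 fold change of -0.36. The prostaglandin transporter SLCO2A1 was called higher, with 0.886 ± 0.179 CPM (SD, n = 3) in Huh7 P, 3.02 ± 0.27 CPM (SD, n = 3) in Huh7 LR and a log2 fold change of 1.77 (SE 0.21, edgeR adjusted p = 5.17e-05). SLCO1A2, the most abundant gene of this list, was lower, with a log2 fold change of -0.41 (edgeR adjusted p = 0.0444). SLCO6A1, a gene best known from testis, was lower too, with a log2 fold change of -1.24 (edgeR adjusted p = 0.0493), from 71 counts over the parental to 31 over the resistant libraries. These lower values were close to the threshold, and SLCO6A1 had passed the filter through Huh7 P alone. SLCO6A1 did not pass in DESeq2's Wald test (adjusted p = 0.129), nor with any 1 library left out, and was too low for limma-trend on FPKM. SLCO1A2 did not pass in limma-trend on log2(FPKM + 0.1) (adjusted p = 0.123), nor with any library other than Huh7 LR replicate 1 left out.

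Of 19 other SLC22 and SLC47 genes, 10 were tested, with a median log2 fold change of 0.81. SLC22A4, SLC22A5 and SLC22A10 were called higher and 0 were called lower, beside 4.43% and 1.78% of all genes and loci. At an edgeR adjusted p below 0.05, 7 were higher and 0 lower, beside 23.3% and 22.4% of all genes and loci. SLC22A10 and SLC22A15 were among these 7 and had passed the filter through Huh7 LR alone. Their directions add no weight to these counts or to the median. At an unadjusted p under 0.05, 1 was lower. SLC22A5 encodes OCTN2, the carnitine transporter, and its mean was 7.06 ± 0.283 CPM (SD, n = 3) in the parental and 17.6 ± 3.94 CPM (SD, n = 3) in the resistant line (log2 fold change 1.32, SE 0.15, edgeR adjusted p = 5.34e-05). SLC22A4, which encodes the related carrier OCTN1, started from 0.364 ± 0.145 CPM (SD, n = 3) and changed by 1.99 on the log2 scale (edgeR adjusted p = 0.000424). Its call was lost without Huh7 LR replicate 2 or 3 and without Huh7 P replicate 1 or 3, at adjusted p of 0.00132, 0.00315, 0.00272 and 0.0018. That of SLC22A10 was lost whichever library was left out, at adjusted p from 0.00196 without Huh7 LR replicate 3 to 0.00592 without Huh7 P replicate 3, and both stayed higher at 0.05. SLC22A18 and SLC22A23, with SLC22A5 the most abundant by FPKM, had log2 fold changes of 0.52 and 0.43. SLC22A6, SLC22A11, SLC22A12, SLC22A17 and SLC22A24 had no count in any library.

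Of 22 other hepatocyte carriers, 20 were tested, with a median log2 fold change of 0.31. At an adjusted p below 0.05 in edgeR, 8 were higher and 3 lower (SLC16A1, SLC19A1 and SLC29A1), and 9 did not pass. Of all genes and loci tested, 23.3% were higher and 22.4% lower at 0.05, and 4.43% and 1.78% were called higher and lower. The glucose transporter SLC2A2, the peptide transporter SLC15A1 and the glutamine transporter SLC38A3 were called higher, with log2 fold changes of 1.20, 1.38 and 1.35. The most abundant genes of the list were the nucleoside transporter SLC29A2, which did not pass (0.12, edgeR adjusted p = 0.307), the citrate transporter SLC13A5, which was higher (0.80, adjusted p = 6.71e-06), and the monocarboxylate transporter SLC16A1, which was lower (-0.45, adjusted p = 0.0023). The folate carrier SLC19A1 and the nucleoside transporter SLC29A1 had log2 fold changes of -0.65 and -0.25 (adjusted p = 0.000189 and 0.00916). SLC10A1, which encodes the bile acid carrier NTCP, had counts of 24, 13 and 7 in parental and 38, 52 and 28 in resistant libraries, and was higher under 0.05 only (log2 fold change 1.40, edgeR adjusted p = 0.0268). It had passed the filter through its Huh7 LR libraries alone.

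**Figure D3:**
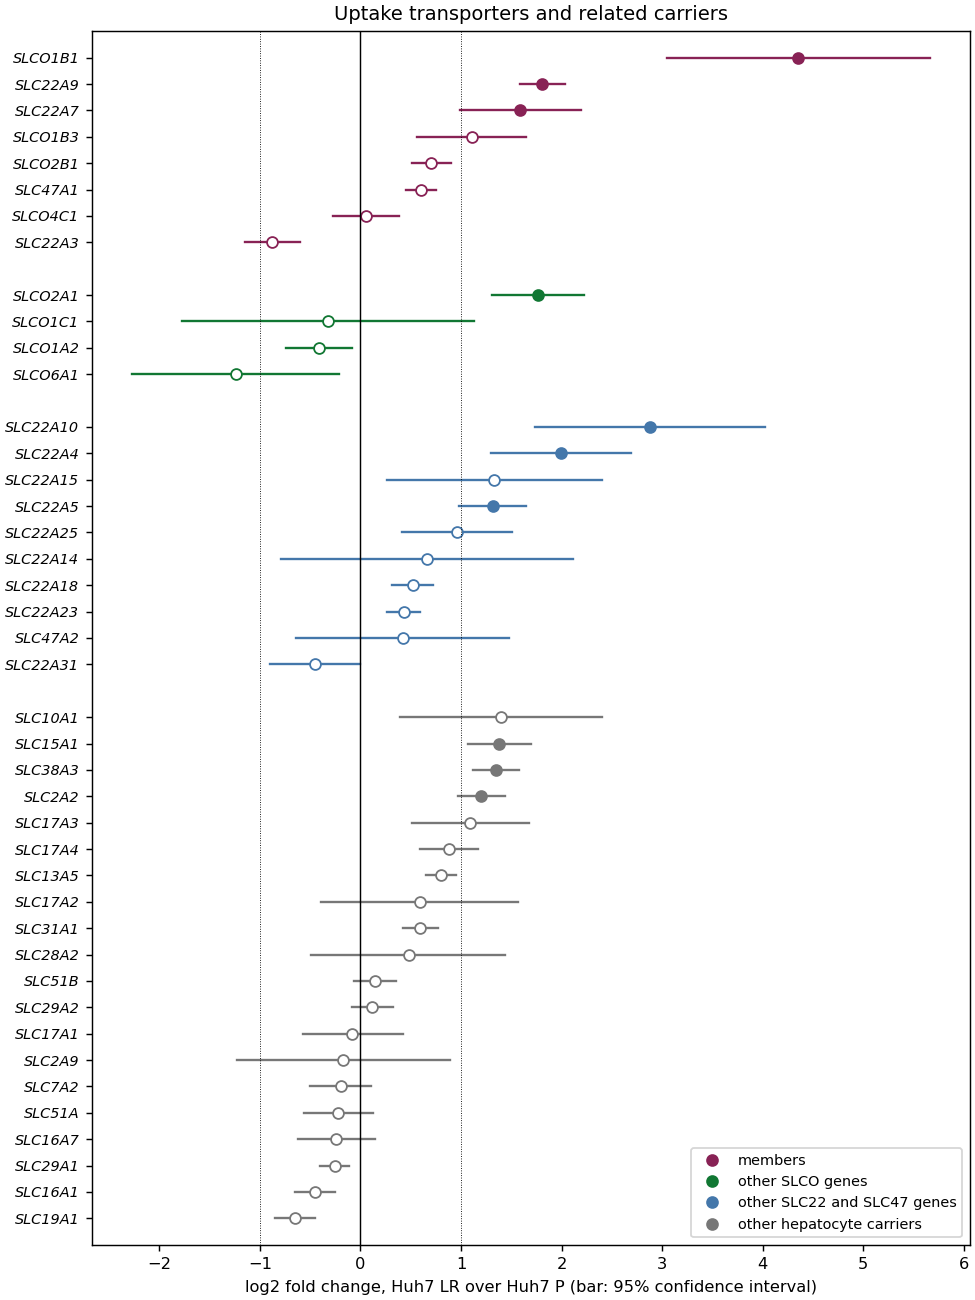
Log2 fold change (Huh7 LR over Huh7 P) of the 8 members and of the 34 tested genes of the 3 lists of related carriers, with 95% confidence intervals. Filled points were called, open points were not, and dotted lines mark a 2-fold change. Filled points lie to the right of 0 in each group, and SLC22A3 is the member furthest to the left.

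Efflux pumps of hepatocytes carry compounds in the other direction. Of 13 genes, 11 were tested, with a median log2 fold change of 0.11. ABCB1 was called higher (1.55) and ABCC1 was called lower (-1.68), where 4.43% and 1.78% of all genes and loci were called. There were 5 higher and 2 lower genes at an adjusted p below 0.05, beside shares of 23.3% and 22.4%, and 4 did not pass. ABCC2 was lower (log2 fold change -0.25, edgeR adjusted p = 0.0127). By mean FPKM it was the most abundant pump in Huh7 P (40.3, with ABCB1 at 12), whereas in Huh7 LR it was close to ABCB1 (34.7 and 35.9). ABCC3, ABCB4, ABCG2 and ABCC6 were higher, with log2 fold changes of 0.88, 0.47, 0.44 and 0.38.

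Transcription factors with binding or responses described for these transporter genes were examined as a list of 19 genes, all tested. Calls numbered 0 in either direction by edgeR, DESeq2 and limma, where edgeR called 4.43% of all genes and loci higher and 1.78% lower. At an adjusted p below 0.05 in edgeR, there were 6 higher and 4 lower genes, beside 23.3% and 22.4% of all genes and loci, and 9 that did not pass, with 6 higher and 6 lower at an unadjusted p under 0.05, and the median log2 fold change was -0.01. Of the most abundant factors, CEBPA was higher (0.58, adjusted p = 5.55e-05), NFE2L2 was lower (-0.42, adjusted p = 0.00146), and HNF4A did not pass (-0.06, adjusted p = 0.608). For the bile acid receptor NR1H4 the log2 fold change was -0.20 (adjusted p = 0.104), and for the xenobiotic receptor NR1I2 it was -0.34 (adjusted p = 0.023). Of the other receptors in the list, RXRA, NR5A2 and AHR were higher (0.31, 0.24 and 0.39, edgeR adjusted p = 0.00669, 0.0174 and 0.00595). NR0B2, NR1I3 and PPARA did not pass. RNA levels do not show the activity of these factors.

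The genes next to each member were taken from GENCODE positions, as the nearest listed annotated gene on either side within 500 kb. SLC22A9 stands at the end of a row of SLC22 genes, close paralogs between which counting could split reads. SLC22A10, which ends 0.071 kb from it, was called higher (log2 fold change 2.88, SE 0.52, edgeR adjusted p = 0.000979), from counts of 7, 2 and 5 in parental to 43, 41 and 23 in resistant libraries. SLC22A25, which lies on the opposite strand inside the span of SLC22A10, was higher (0.96, edgeR adjusted p = 0.00873). HRASLS5 on the other side did not pass (0.15, adjusted p = 0.707). In the window around SLC22A9, 12 genes were tested, 2 were called higher (SLC22A10 and RARRES3) and 0 lower, beside 4.43% and 1.78% of all genes and loci. Both had passed the filter through Huh7 LR alone. At edgeR's adjusted p under 0.05, 4 were higher and 0 lower, beside 23.3% and 22.4% of all genes and loci. PLA2G16 was among the 4 (log2 fold change 0.69, edgeR adjusted p = 1.58e-05). The median log2 fold change of this window was 0.19. Next to SLC22A3, SLC22A2 and LPA had 8 and 12 counts in Huh7 LR and were not tested, and further off PLG was called higher (1.48, adjusted p = 3.34e-05) and IGF2R was higher at 0.05 (0.35, adjusted p = 0.00199), while SLC22A3 itself was lower. Around SLCO1B1, 9 genes were tested, 1 of them SLCO1B3, which was higher, and 4 were lower at an adjusted p under 0.05, where 22.4% of all genes and loci were, with a median of -0.33. GYS2 was one of the 4 and had passed the filter through Huh7 P alone. SLCO1A2, the nearest separate neighbour of SLCO1B1, was another. SLCO1C1 next to SLCO1B3 did not pass (-0.32, adjusted p = 0.727). OR2AT4 and TPBGL beside SLCO2B1 and TTBK1 beside SLC22A7 had too few counts to test. SLCO6A1 lies next to SLCO4C1 on 1 side, and no listed gene lay within 500 kb on the other. RNF112 and ALDH3A2 beside SLC47A1 had log2 fold changes of 0.15 and -0.03 and did not pass. In the windows of the other members, counts of higher and of lower genes, by edgeR's adjusted p under 0.05, were 0 and 5 of 9 tested around SLCO2B1 (median log2 fold change -0.25), 5 and 7 of 30 around SLC22A7 (-0.09), 1 and 1 of 13 around SLC47A1 (0.15), 1 (SLCO1B1) and 1 of 4 around SLCO1B3 (-0.20) and 1 and 1 of 2 around SLCO4C1 (-0.22). Over everything tested, the shares at this threshold were 23.3% (higher) and 22.4% (lower). Most of these windows hold too few genes to set against them. SLCO1B1 had passed the filter through Huh7 LR alone and SLCO6A1, the lower gene around SLCO4C1, through Huh7 P alone. ULK2, the higher gene around SLC47A1, was called (1.68, adjusted p = 0.000173).

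**Figure D4:**
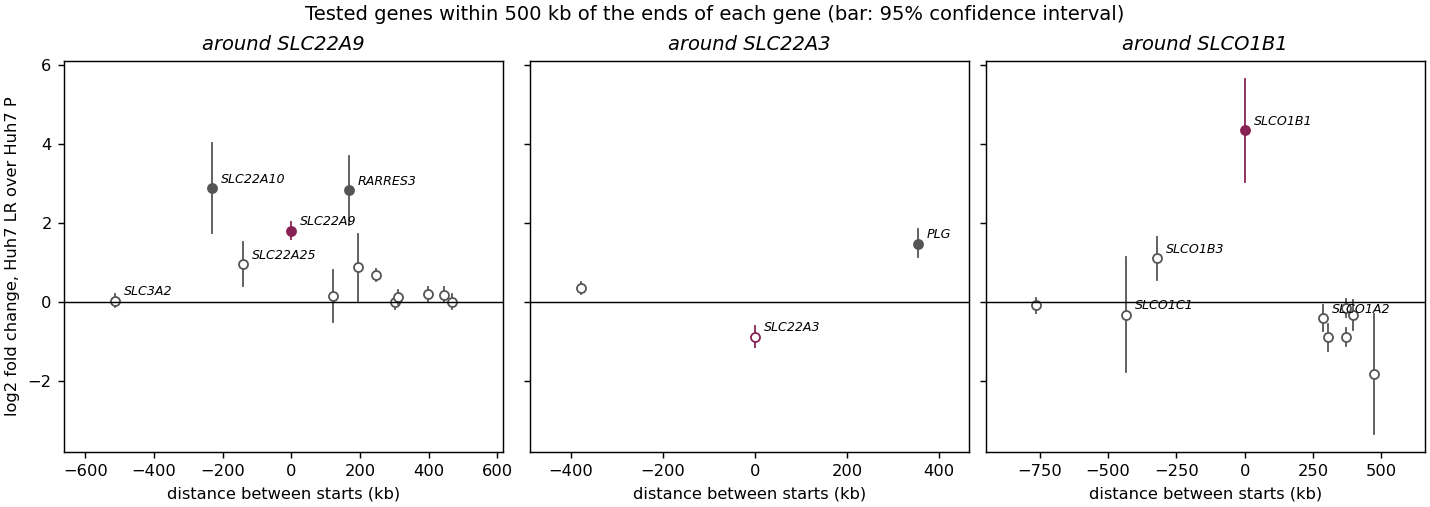
Log2 fold change (Huh7 LR over Huh7 P, with 95% confidence intervals) of tested genes within 500 kb of the ends of SLC22A9, SLC22A3 and SLCO1B1, by the distance between start sites in kb. The named member is in purple at 0 and filled points were called. SLC22A10 and SLC22A25 lie above 0 beside SLC22A9. PLG and the unlabelled IGF2R lie above 0 to either side of SLC22A3, which lies below.

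Since several members are known from kidney or gut as well as liver, markers of other cell types were read in the same libraries. The shares over everything tested, at the same threshold of 0.05, were 23.3% (higher) and 22.4% (lower). Calls took in 4.43% (higher) and 1.78% (lower), and most of these lists are too short to set against these shares. SLC5A2, LCT and VWF passed the filter on low counts through Huh7 LR alone. Hepatocyte markers summed to 45236, 50468 and 54504 CPM in Huh7 P and 57194, 57086 and 59608 CPM in Huh7 LR, with AFP the most abundant in Huh7 P and ALB the most abundant in Huh7 LR, and 4 of 10 were higher (ALB, TTR, APOA1 and TF) and 0 lower by edgeR's adjusted p under 0.05, with 1 lower at an unadjusted p under 0.05. Of 7 markers of the kidney proximal tubule, 5 were tested and 3 were higher, LRP2, CUBN and SLC5A2. Of these, LRP2 (log2 fold change 1.29) and CUBN were called higher. The list summed to 331, 315 and 289 CPM in Huh7 P and 641, 824 and 788 CPM in Huh7 LR, most of it LRP2. Of the other carriers in this list, SLC5A12 had a mean of 19 ± 0.44 CPM (SD, n = 3) in the parental and 18.6 ± 3.08 CPM (SD, n = 3) in the resistant line and did not pass, SLC34A1 was low in all libraries and did not pass, SLC22A8 had 3 counts in 1 library and SLC22A6 had no count in any library. The mean of CUBN was 0.542 ± 0.248 CPM (SD, n = 3) in the parental and 18.2 ± 4.94 CPM (SD, n = 3) in the resistant line (log2 fold change 5.05, edgeR adjusted p = 8.24e-07). Of 6 enterocyte markers, 5 were tested, 3 were higher (CDX2, SI and LCT) and VIL1 was lower. SI was called higher (log2 fold change 1.69). The list summed to 947, 978 and 950 CPM in Huh7 P against 911, 1080 and 1023 CPM in Huh7 LR, with CDH17 the most abundant by FPKM. Of 7 cholangiocyte markers, 5 were tested, 3 were higher (CFTR, EPCAM and SCTR) and 1 lower. CFTR was called higher and KRT19 was called lower (log2 fold changes of 1.67 and -2.07), EPCAM was the most abundant by FPKM, KRT7 had 3 counts in 1 library, and the sum was 430, 416 and 417 CPM against 431, 427 and 422 CPM. Of 6 fibroblast markers, 2 were tested and both were higher, COL1A1 and PDGFRB. COL1A1 was called higher (log2 fold change 1.84), a call lost without Huh7 P replicate 3 (edgeR adjusted p = 0.00105). The list summed to at most 2.25 CPM in Huh7 P and 8.02 CPM in Huh7 LR, with COL1A1 the most abundant and THY1 and DCN at 0. Of 6 leukocyte markers, 3 were tested and LYZ was called lower (log2 fold change -2.79). They summed to 67.6, 67.7 and 62.4 CPM against 13.1, 14 and 10.1 CPM, mostly from LYZ, with HLA-DRA and TYROBP at 0. Of 5 endothelial markers, 2 were tested. PECAM1 was higher, and VWF, counted 0, 0 and 8 times in parental and 19, 26 and 21 times in resistant libraries, could be tested only because of its Huh7 LR libraries. They summed to 38.8, 45.7 and 47.5 CPM against 70.7, 71.2 and 65 CPM, nearly all from PECAM1, with CDH5, KDR and TEK at 0. The part of kidney and gut genes in the differences of the transporters was not tested.

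**Figure D5:**
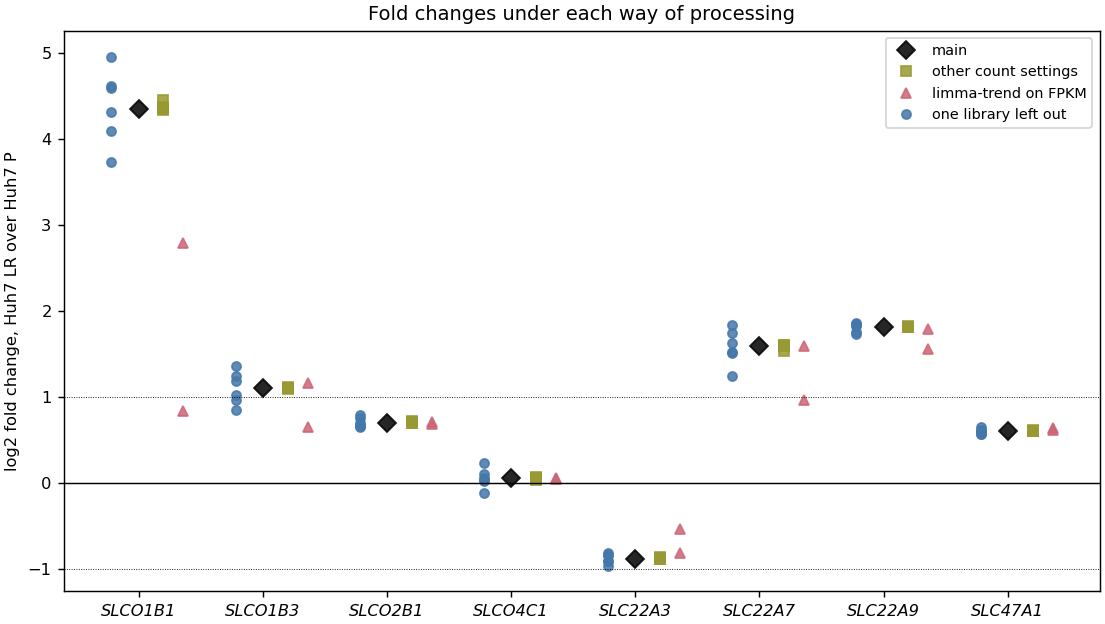
Log2 fold change (Huh7 LR over Huh7 P) of each member in edgeR's test (black diamonds), under other settings of the count tests (squares), in limma-trend on FPKM with pseudocounts of 0.1 and 1 (triangles) and with 1 library left out at a time (circles). Dotted lines mark a 2-fold change. SLC22A9 lies above 1 under every setting, SLCO1B1 spans 0.84 to 4.96, and SLCO4C1 stays within -0.12 and 0.23.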

How the data were processed

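Samples were grouped by their titles into 3 Huh7 P and 3 Huh7 LR libraries. The authors deposited whole-number read counts, not normalized, and FPKM values scaled for length and library size. The submitters' processing notes name TopHat2, Cufflinks, DESeq and the mouse build mm10, whereas all gene identifiers are human, and strand use in counting is not stated. The table holds 26184 genes and loci, and 34 lines that name no gene were left out. Positions and exon overlaps come from GENCODE release 29 (GRCh38). For the counts, edgeR 4.0.16 in R 4.3.3 was used (filterByExpr with a minimum count of 10, TMM factors between 0.977 and 1.03, quasi-likelihood test, Benjamini-Hochberg adjustment over 17531 genes and loci). The biological coefficient of variation was 12.7%. Standard errors equal the absolute log2 fold change over the square root of F. Alternatives used DESeq2 1.42.0, limma 3.58.1, other filters, a replicate block and each library left out. Replicates differed by more than sampling noise and each counted once, though this excess alone does not show that the samples were independent. The test was tested on simulated data. Figures used matplotlib 3.10.9 and alignment used Biopython 1.88. Members and lists were chosen with earlier results of these data known, and 3 genes of the lists are not reported here and were left out of list counts and windows. Named genes were the members, the called genes of each list, the 3 most abundant of each list of carriers, pumps and factors and the most abundant of each marker list, all genes under 0.05 in lists of up to 13, the nearest profiles and the nearest neighbours. Other named genes were chosen after their values were seen.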

Additional observations from a re-analysis of the deposited data

How the results depend on the processing

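Of 119 values of single members under the alternatives, 118 stayed on the same side of 0 and of the 0.05 threshold. The exception was SLCO4C1, which did not pass in any of them and whose log2 fold change ranged from -0.12 to 0.23 with 1 library left out at a time, below 0 without Huh7 LR replicate 1. With 1 library left out at a time, between 1 and 3 members were called higher. In limma-trend on log2(FPKM + 0.1), 2 members, 5 related transporters and 589 genes and loci were called higher and 212 lower. With a pseudocount of 1, which shrinks the changes of low genes, these numbers were 1, 4, 268 and 84. The test, the unit and the filter differ from edgeR's in both. At an adjusted p under 0.05 with no fold threshold, 6 members were higher and 1 lower, and 4093 genes and loci were higher and 3923 lower. With at least 10 counts in every library required, SLCO1B1 had no value. Samples of the same number deviated together only weakly (correlations of 0.0762, 0.0933 and 0.044 over 13877 genes), and each sample was highest with its own number. These values cannot decide whether the numbers pair the samples. With the replicate number as a block, 783 genes and loci were called higher and 316 lower, 4 members were called higher, SLCO1B3 being added (adjusted p = 0.000248 from edgeR's test), and 6 related transporters, SLC22A10 being lost (adjusted p = 0.00163). Depth limits SLCO1B1 in Huh7 P, with at most 11 counts in a library. A single resistant line, the lack of protein or transport measurements and unstated strand use bound what these values show.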
